A study of Mus musculus with 23 samples.

Results

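The genes described here are 10 mouse targets of the antioxidant response, namely Gclm, Gclc, Hmox1, Nqo1, Txnrd1, Srxn1, Slc7a11, Gsr, G6pdx and Prdx1, among the 20599 genes whose mRNA was measured. They were chosen by symbol, and the set was selected on measured values in so far as some of the strongest THRAP3 peaks of these cells lie at Gclm and Hmox1. The peaks near these genes are therefore given as a description, and tests were run on their mRNA levels. The genes were also chosen with earlier results of these data known, which the p-values do not account for. All 10 were found in the expression table and all 10 passed the filter on low values, which asked for at least 1 TPM in at least 3 of the 9 libraries. TPM is a level per transcript length, and the values of a library always add up to a set total.

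The cells were β-TC6, a mouse insulinoma line that makes insulin, used at 5 to 15 passages. RNA was sequenced from WT cells without edits, from Bmal1-/- cells that lack exon 8 of Bmal1 and from Clock-/- cells that lack exons 6 and 7 of Clock, with 3 wells of each. THRAP3, a nuclear protein that binds RNA and is also found on chromatin, was immunoprecipitated from crosslinked WT and Bmal1-/- cells, with 2 ChIP-seq libraries of each genotype, and the authors called peaks in each library over the pooled input DNA of its genotype. No ChIP-seq from Clock-/- cells was analysed here. Each knockout was 1 selected clone carrying a drug resistance cassette (neomycin for Bmal1, puromycin for Clock), so genotype and clone cannot be told apart and p-values measure the spread between wells of 1 line.

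When electrophiles or oxidants modify KEAP1, the adaptor that marks NRF2 for destruction, NRF2 builds up, pairs with a small MAF protein and binds antioxidant response elements, short DNA sites with the core TGANNNNGC. BACH1 binds the same kind of site as a repressor until heme displaces it. The target genes make glutathione (Slc7a11, Gclc, Gclm), return it to its reduced form (Gsr), run the thioredoxin and peroxiredoxin relay (Txnrd1, Srxn1, Prdx1), supply NADPH (G6pdx), break down heme (Hmox1) and reduce quinones (Nqo1). Pancreatic β cells are known for low levels of several peroxide-removing enzymes, and this response is among their defences against oxidants.

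The 18 β-cell markers, insulin among them, were all above 1 TPM on average in every genotype. Their sum lay between 61196 and 63589 TPM in WT, 45418 and 48736 TPM in Bmal1-/- and 38760 and 44360 TPM in Clock-/- libraries, and Ins1, an insulin gene, had means of 2307, 2361 and 61 TPM in the same order. Most of the WT sum came from Ins2 (mean 28266 TPM) and Iapp (22115 TPM), so it does not stand for each marker. Single markers went both ways, as Nkx6-1 had means of 264.9, 646.6 and 504.6 TPM and Slc2a2 of 108.7, 42.8 and 6.8 TPM. Of 10 markers of exocrine and duct cells 5 were in the table, and of 9 markers of fibroblasts and endothelium 6 were. None of these reached a mean of 1 TPM but Cela2a, in WT cells. Markers of other islet endocrine cells, 5 of 7 in the table, summed to between 568.6 and 587 TPM in WT, 100.6 and 111.5 TPM in Bmal1-/- and 1514 and 1690 TPM in Clock-/- libraries. Most of this was Gcg, with means of 476.5, 52.2 and 1225 TPM, while Irx2 had 11.45, 33.5 and 14.85 TPM. Macrophage and blood markers summed to between 9.60 and 10.9, 1.31 and 1.62, and 21.2 and 22.9 TPM in the same order, with Cd68 the only one whose group means exceeded 1 TPM. Their part in the results was not tested. Between 687 and 905 genes were listed at 0 in the WT libraries, 2189 to 2691 in the Bmal1-/- and 791 to 1010 in the Clock-/- libraries, and TPM do not keep the depth behind these numbers. Arntl, as the annotation names Bmal1, had a mean of 3.79 TPM in WT, and of 3.42 and 13.3 TPM in the Bmal1 and Clock knockouts. Clock had means of 45.8, 34.2 and 36.9 TPM in the same order. Only a few exons were deleted, so these levels of the whole gene do not check the knockouts.

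The sequences under THRAP3 peaks that recurred at these genes are shown first, with their letter matches to known sites, whose use in these cells was not tested. Peaks of the 4 lists that overlapped by at least 1 base were joined into regions, and the GRCm38 reference (mm10) was read over 251 bases around each region's mean centre. The sites shown were found by searching both strands for the core TGANNNNGC, the fuller form TGANTCAGC that NRF2 and BACH1 share, and the E-box CACGTG that CLOCK and BMAL1 bind. Capitals below mark matches to TGANNNNGC or its reverse complement and to CACGTG. The regions upstream of Hmox1 at −9.67 and −3.92 kb and of Gclc are given in full, and the others shown as 29 bases around 1 match. Nqo1 at 6.68 kb and Gclm at −8.34 kb, each in 3 lists, matched the core and not the fuller form and are not shown. All sequences run 5′ to 3′ on the strand of the gene they are named for.
Hmox1 at −9.67 kb (chr8:75083824-75084074, plus strand, intergenic): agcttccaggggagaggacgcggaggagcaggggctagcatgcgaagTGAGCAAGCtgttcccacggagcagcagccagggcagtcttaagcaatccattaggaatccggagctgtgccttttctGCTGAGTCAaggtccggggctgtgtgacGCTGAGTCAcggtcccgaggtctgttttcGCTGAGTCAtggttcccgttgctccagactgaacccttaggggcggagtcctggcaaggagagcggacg
Hmox1 at −3.92 kb (chr8:75089579-75089829, plus strand, intergenic): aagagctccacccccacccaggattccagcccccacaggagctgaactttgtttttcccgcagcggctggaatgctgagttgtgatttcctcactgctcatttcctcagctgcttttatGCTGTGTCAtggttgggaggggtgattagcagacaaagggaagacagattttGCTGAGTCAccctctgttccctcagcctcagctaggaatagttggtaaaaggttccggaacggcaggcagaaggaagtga
Gclc at −3.81 kb (chr9:77750598-77750848, plus strand, intergenic): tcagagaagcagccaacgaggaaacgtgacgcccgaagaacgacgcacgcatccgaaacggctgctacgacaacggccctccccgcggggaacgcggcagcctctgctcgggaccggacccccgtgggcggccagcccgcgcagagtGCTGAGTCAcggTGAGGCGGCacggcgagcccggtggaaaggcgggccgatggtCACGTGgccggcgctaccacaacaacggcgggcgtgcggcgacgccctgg
Gclm at 0.111 kb (chr3:122245642-122245670, plus strand, first exon): tgaggtttctGCTTAGTCAttgtcttcca
Srxn1 at −0.019 kb (chr2:152105469-152105497, plus strand, promoter): aaattcacccTGAGTCAGCggccgggcgc
Prdx1 at −0.073 kb (chr4:116685456-116685484, plus strand, promoter): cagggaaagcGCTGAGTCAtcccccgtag
Slc7a11 at −0.036 kb (chr3:50443640-50443668, minus strand, promoter): tggagaatttGCATCATCAtgcagcccag
Txnrd1 at −19.7 kb (chr10:82814237-82814265, plus strand, intron of the noncoding gene 1700028I16Rik): tggagaaaatGCGGAGTCAtgatgtgtcg

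The Hmox1 region at −9.67 kb held 3 copies of TGANTCAGC, and the regions at Hmox1 −3.92 kb, Gclc −3.81 kb, Srxn1 and Prdx1 held 1 each. The Gclm site, TGACTAAGC in its reverse complement, matched the core and not the fuller form, and the same was true of Slc7a11 and Txnrd1. TGANTCAGC was found in 5 of the 18 regions near these genes, beside 4.85% of all 21001 regions with a reference sequence. Of the 6 regions of these genes present in all 4 peak lists 4 held it, beside 31.4% of the 510 such regions genome-wide. Those 6 include the Gclm and Hmox1 peaks by which the set was chosen. TGANTCAGC was in 1.19% of 32851 RefSeq promoters of 300 bases (mm10). It contains TGANTCA, the site of AP-1 factors, which was in 44.5% of the 510 regions and 12.6% of all regions. The looser TGANNNNGC, which contains TGANTCAGC as a special case, was in 41.9% of all regions, 41.3% of promoters and 62.4% of the 510 regions. Near these genes it was in 14 of the 18 regions and in all 6 of those present in all 4 lists.

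CACGTG was present in 1 of the 18 regions near the 10 genes, the one at Gclc, and in 5.39% of all regions. The cAMP response site TGACGTCA was in none of the 18 and in 1.09% of all regions. The Slc7a11 region alone of the 18 carried TGATGNAA, the amino acid response site bound by ATF4, with 2 matches, 1 of which overlaps the capitals shown above, and 3.20% of all regions carried it. These matches are letters in the reference, and no factor other than THRAP3 was immunoprecipitated.

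THRAP3 peaks lay within 20 kb of the annotated start of 9 of the 10 genes in the second WT library and in both Bmal1-/- libraries and of 5 in the first WT library. Of all 20499 genes with a position, 22.1% had such a peak in the second WT, 44.3% in the first Bmal1-/- and 39.9% in the second Bmal1-/- library, against 3.25% in the first WT library. Since peaks chose the genes, nothing is read from this difference. Among the 6762 genes with a WT mean of at least 20 TPM, as 8 of the 10 genes have, the shares were 31.0%, 60.8%, 54.2% and 4.41% in the same order. The lists differed in size, with 808 and 6128 peaks in the WT libraries and 12949 and 12226 in the Bmal1-/- libraries, although each library had between 12296107 and 14961095 tags. The share of tags in peaks, given in the file headers as IP efficiency, was 0.11% and 0.76% in WT and 1.86% and 1.67% in Bmal1-/- libraries, so the first WT library stood apart. With the 700 best scoring peaks of each list (718 to 808 with ties), 5 and 6 of the 10 genes had a peak in WT and 7 in each Bmal1-/- library, beside 3.10% to 3.34% of all genes.

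**Figure D1:**
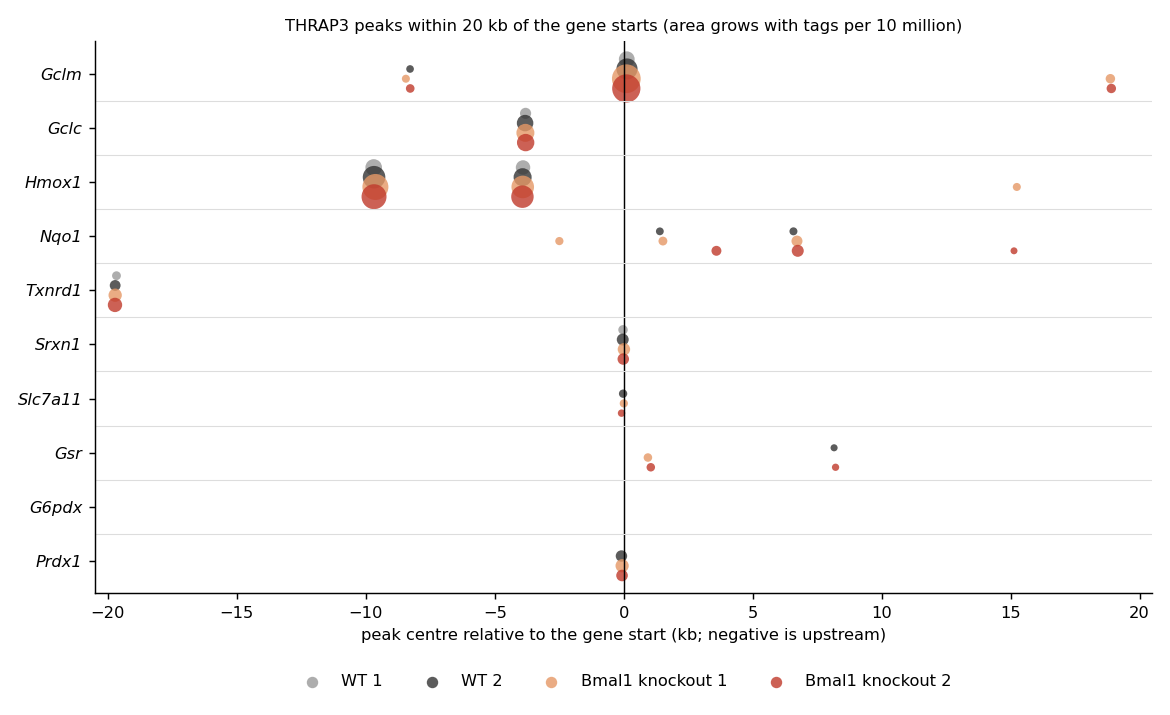
THRAP3 peaks within 20 kb of the start of each gene, 1 colour per ChIP-seq library, placed by the distance of the peak centre from the start (kb, negative is upstream) with an area that grows with normalized tags. Peaks recurred in every library at the Gclm and Srxn1 starts, at −3.81 kb of Gclc, at −9.67 and −3.92 kb of Hmox1 and at −19.7 kb of Txnrd1, and G6pdx had none.

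Gclm, which encodes the modifier subunit of the enzyme that starts glutathione synthesis, carried the strongest THRAP3 peak of both Bmal1-/- lists. Over the first exon, at 111 bases from the start on average, it had 64.2 and 118.8 normalized tags (tags after scaling libraries to a common depth) in the WT libraries and 224.6 and 217.2 in the Bmal1-/- libraries. By score it ranked 5 of 808, 4 of 6128, 1 of 12949 and 1 of 12226. Weaker Gclm peaks lay at −8.34 kb in 3 lists (10.9 to 15.4 tags) and in an intron at 18.9 kb in both Bmal1-/- lists (19.4 and 19.6 tags).

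Hmox1, which encodes the stress-induced heme oxygenase, had the peak of second rank by score in all 4 lists. This peak, at −9.67 kb, had 71.6 and 136.6 tags in WT and 183 and 168.4 tags in Bmal1-/- libraries. The Hmox1 peak at −3.92 kb had 52.9 and 85.4 tags in WT and 136.6 and 135 tags in Bmal1-/- libraries, with ranks of 10, 14, 9 and 6. No peak was called at the Hmox1 start itself.

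Gclc, the catalytic subunit that works with GCLM, had 1 peak, at −3.81 kb, with 29.3 and 70.6 tags in WT and 84.8 and 78.9 in Bmal1-/- libraries. In the last 3 of these libraries it was within the first 26 peaks by score. Srxn1, which encodes the sulfiredoxin that rescues overoxidized peroxiredoxins, had a peak over its start with 19.5 and 34.2 tags in WT and 37.7 and 31.4 in Bmal1-/- libraries. Prdx1, a peroxiredoxin, had a promoter peak of 31.0 tags in the second WT library and of 43.2 and 32.1 in Bmal1-/- libraries, and none in the first WT library.

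Nqo1, Slc7a11 and Gsr had no peak in the first WT library. Slc7a11, the cystine importer, had a promoter peak of 14.0 tags in the second WT library and of 13.4 and 10 tags in Bmal1-/- libraries. In Nqo1, a quinone reductase, an intronic region at 6.68 kb had 12.4 tags in the second WT library and 28.3 and 34.8 tags in Bmal1-/- libraries, and 4 further regions were each in 1 or 2 lists. Gsr, glutathione reductase, had a peak at 8.18 kb in 2 lists (8.54 and 9.36 tags) and one at 0.993 kb in both Bmal1-/- lists (14.9 and 14.7 tags). G6pdx, the enzyme that feeds glucose 6-phosphate into the NADPH-making pathway, had no peak within 20 kb in any list, nor within 50 kb.

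The 20 kb limit passed close to several regions. Txnrd1, the cytosolic thioredoxin reductase, had a peak at −19.7 kb with 16.3 and 27.2 tags in WT and 44.0 and 52.1 in Bmal1-/- libraries, just inside it. Outside the limit, at 25.2 kb, an intronic Txnrd1 peak had 17.1 tags in the second WT and 31.4 and 30.1 tags in Bmal1-/- libraries. That peak lies over a second RefSeq start of the gene (chr10:82858956-82859255). The next peak of Prdx1 lay at 22.9 kb, with 10.9 tags in the second WT and 15.4 tags in the second Bmal1-/- library. A Hmox1 peak at −23.1 kb was in the first Bmal1-/- list alone, with 8.64 tags. With a limit of 10 kb the counts of genes with a peak were 4, 8, 8 and 8, Txnrd1 being the one lost.

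Normalized tags at all 6 recurrent regions but that of Srxn1 were higher in both Bmal1-/- libraries than in either WT library. The median tags of all 510 regions in the 4 lists ran the same way, at 11.4 and 20.2 in WT and 26.7 in each Bmal1-/- library. The ratio of the Bmal1-/- mean to the WT mean was 2.41 at Gclm, 2.21 at Txnrd1, 1.96 and 1.69 at Hmox1, 1.64 at Gclc and 1.29 at Srxn1. The 510 regions found in all lists had a median ratio of 1.60, and 5% of them were above 2.51, so the 6 lay within the range of the others. Against the second WT library alone the 6 ratios were 1.01 to 1.86 beside a median of 1.29. With 2 libraries a genotype that differ in IP efficiency the difference was not tested.

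**Figure D2:**
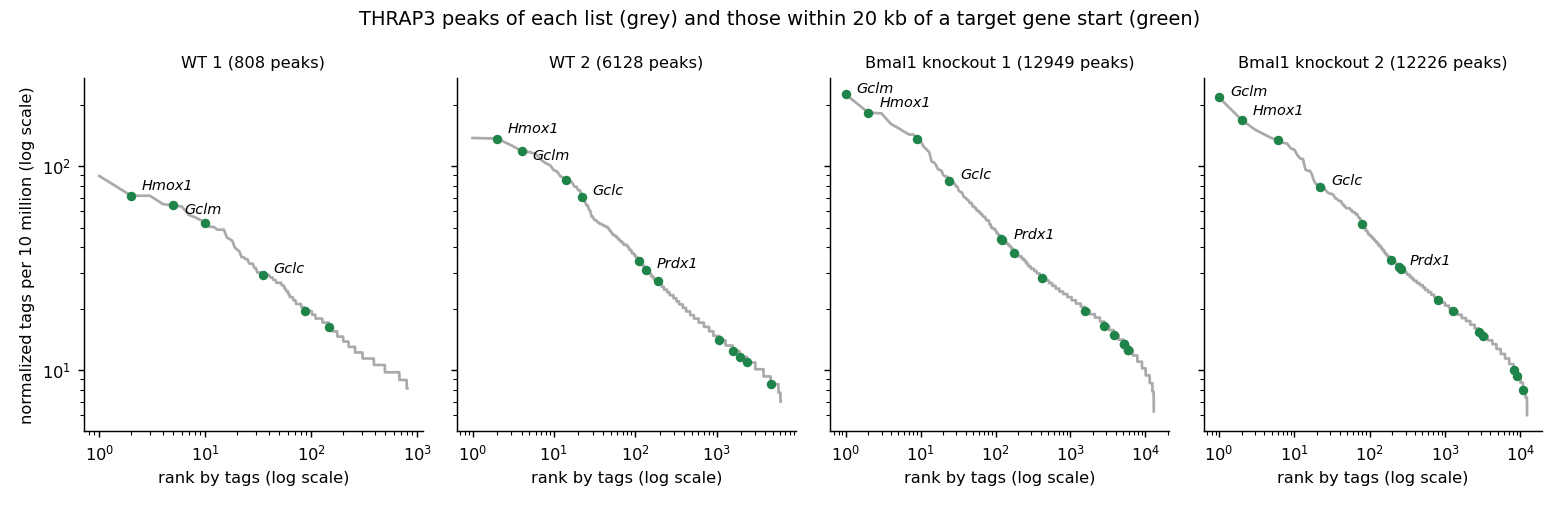
Normalized tags of every THRAP3 peak of each library against its rank by tags, both on log scales (grey line), with the peaks within 20 kb of the 10 genes as green points. Gclm and Hmox1 sit at the head of every list, and the other points lie further down each list.

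In Bmal1-/- cells the mRNAs of Hmox1, Srxn1, Slc7a11, Gclc, Txnrd1 and Gsr fell and that of Nqo1 rose, at an adjusted p under 0.01. Hmox1 mRNA was 2.93 times and Srxn1 mRNA 2.72 times lower than in WT. The 6 of 10 that fell stand beside 21.0% of the 15031 genes tested, and the 1 that rose beside 18.4%. Hmox1, Srxn1, Slc7a11 and Nqo1 also changed by more than 1 on the log2 scale, as 11.8% of all genes did. The median log2 fold change of the 10 genes was −0.43 and that of all genes −0.04. Without WT replicate 1 or WT replicate 2 the number that fell was 4, as Gsr and Txnrd1 then had adjusted p-values between 0.0110 and 0.0137.

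In Clock-/- cells Gclm, Srxn1, Txnrd1 and Hmox1 fell and none of the 10 rose. The change of Gclm alone exceeded 1 on the log2 scale. These 4 stand beside 14.4% of all genes that fell, and the 0 beside 9.50% that rose, while 7.40% of all genes changed by more than 1. The median was −0.20 for the 10 genes and −0.02 for all genes. The falls of Txnrd1 and Hmox1 were close to the threshold, and the count was 3 whenever 1 library was left out, or 2 without WT replicate 1, WT replicate 2 or Clock-/- replicate 1. Both comparisons share the same 3 WT libraries, and in bulk RNA fewer cells of a kind and less RNA per cell cannot be told apart.

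**Figure D3:**
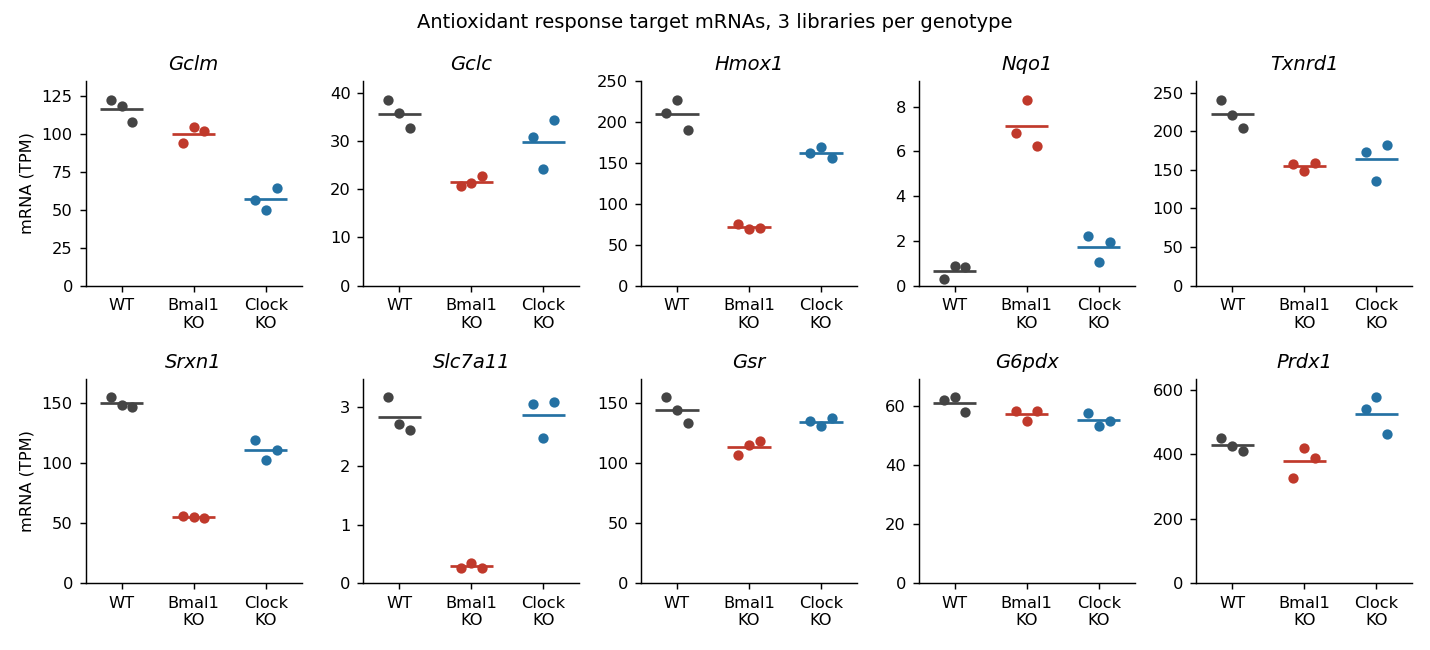
mRNA level (TPM, axis from 0) of the 10 genes in each of the 3 libraries per genotype (points) with the mean (line). Hmox1, Srxn1 and Slc7a11 were lowest in the Bmal1-/- libraries, Gclm was lowest in the Clock-/- libraries, and Nqo1 was highest in the Bmal1-/- libraries.

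Gene positions below are in mm10 (GENCODE vM21). Glutathione synthesis begins with cystine, which SLC7A11 brings into the cell. Slc7a11 (ENSMUSG00000027737, chr3:49892526-50443614, minus strand) mRNA was at 3.17, 2.71 and 2.62 TPM in WT, 0.26, 0.35 and 0.26 TPM in Bmal1-/- and 3.06, 2.48 and 3.09 TPM in Clock-/- libraries. All Bmal1-/- libraries were under 1 TPM and the other genotypes overlapped. The log2 fold change of TPM + 1, a scale that understates the change of low genes, was −1.57 (SE 0.13, adjusted p = 8.8e-06) in Bmal1-/- and 0.01 (SE 0.13, adjusted p = 0.946) in Clock-/- cells.

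The subunits of glutamate cysteine ligase moved unequally. Gclm (ENSMUSG00000028124, chr3:122245557-122270732, plus strand) was at 122, 118 and 107.5 TPM in WT, 93.9, 105 and 102 TPM in Bmal1-/- and 56.3, 49.9 and 64.4 TPM in Clock-/- libraries. The Clock-/- libraries were all far below the rest, while the highest Bmal1-/- library stayed just under the lowest WT library. The log2 fold change of Gclm was −0.21 (SE 0.10, adjusted p = 0.0912) in Bmal1-/- and −1.02 (SE 0.10, adjusted p = 3.3e-05) in Clock-/- cells.

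Gclc (ENSMUSG00000032350, chr9:77754535-77794485, plus strand) showed the larger difference in the other line. It was at 38.5, 35.7 and 32.6 TPM in WT, 20.6, 21.3 and 22.6 TPM in Bmal1-/- and 30.7, 24.2 and 34.3 TPM in Clock-/- libraries. The Bmal1-/- libraries were below all others and 1 Clock-/- library lay within the WT range. The log2 fold change of Gclc was −0.70 (SE 0.12, adjusted p = 9.4e-04) in Bmal1-/- and −0.26 (SE 0.12, adjusted p = 0.121) in Clock-/- cells.

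Gsr (ENSMUSG00000031584, chr8:33652523-33698163, plus strand), which regenerates reduced glutathione with NADPH, was at 154, 144 and 133 TPM in WT, 107, 114.5 and 118.5 TPM in Bmal1-/- and 134.5, 130 and 137 TPM in Clock-/- libraries. The Bmal1-/- libraries were below the WT range, and the Clock-/- libraries met it at its lower end. Its log2 fold change was −0.34 (SE 0.07, adjusted p = 0.00250) in Bmal1-/- and −0.10 (SE 0.07, adjusted p = 0.298) in Clock-/- cells.

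Hmox1 (ENSMUSG00000005413, chr8:75093621-75100589, plus strand), whose product splits heme into biliverdin, iron and carbon monoxide, was at 211, 227 and 191 TPM in WT, 75.9, 69.1 and 70.1 TPM in Bmal1-/- and 162, 169.5 and 157 TPM in Clock-/- libraries. No genotype overlapped another. Its log2 fold change was −1.53 (SE 0.08, adjusted p = 3.2e-07) in Bmal1-/- and −0.36 (SE 0.08, adjusted p = 0.00440) in Clock-/- cells, and the second of these had adjusted p-values from 0.00301 to 0.0227 with 1 library left out.

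Srxn1 (ENSMUSG00000032802, chr2:152105516-152111376, plus strand) followed the same order. It was at 154, 148 and 146 TPM in WT, 56.4, 54.7 and 54.1 TPM in Bmal1-/- and 119, 103 and 111 TPM in Clock-/- libraries, again without overlap. Its log2 fold change was −1.43 (SE 0.07, adjusted p = 2.2e-07) in Bmal1-/- and −0.43 (SE 0.07, adjusted p = 7.4e-04) in Clock-/- cells.

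Txnrd1 (ENSMUSG00000020250, chr10:82833951-82897712, plus strand), which passes electrons from NADPH to thioredoxin, was at 241, 221 and 204 TPM in WT, 157, 148 and 158 TPM in Bmal1-/- and 173, 135.5 and 182 TPM in Clock-/- libraries. Both knockouts lay below the WT range and overlapped each other. The log2 fold changes were −0.52 (SE 0.11, adjusted p = 0.00277) and −0.44 (SE 0.11, adjusted p = 0.00985), and the second missed the threshold in 8 of 9 fits that left out 1 library.

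Prdx1 (ENSMUSG00000028691, chr4:116685544-116700822, plus strand), the most abundant of the 10 mRNAs, was at 450, 427 and 410 TPM in WT, 326, 419 and 390 TPM in Bmal1-/- and 539, 577 and 464 TPM in Clock-/- libraries. The WT and Bmal1-/- ranges overlapped, and the Clock-/- libraries were above both. The log2 fold changes of −0.19 (SE 0.11, adjusted p = 0.160) and 0.29 (SE 0.11, adjusted p = 0.0540) did not pass the test.

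G6pdx (ENSMUSG00000031400, chrX:74409483-74429194, minus strand) passed the test in neither line, with a WT mean of 60.9 ± 2.66 TPM beside 57.1 ± 1.86 TPM in the Bmal1-/- and 55.2 ± 2.24 TPM in the Clock-/- line (SD, n = 3). Its log2 fold changes were −0.09 (SE 0.06, adjusted p = 0.263) and −0.14 (SE 0.06, adjusted p = 0.122). G6pdx shares sequence with the retrogene G6pd2, and Ikbkg (up to 28.7 TPM) overlaps it on the other strand.

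Nqo1 (ENSMUSG00000003849, chr8:107388225-107403206, minus strand) moved against the others. It was at 0.31, 0.88 and 0.82 TPM in WT, 6.81, 8.31 and 6.25 TPM in Bmal1-/- and 2.203, 1.04 and 1.95 TPM in Clock-/- libraries. The Bmal1-/- libraries were above all others, and every WT library was under 1 TPM and below every Clock-/- library. The log2 fold change was 2.29 (SE 0.21, adjusted p = 1.6e-05) in Bmal1-/- and 0.70 (SE 0.21, adjusted p = 0.0263) in Clock-/- cells. It was also the one of the 10 with most regions near it, 5, of which all but the one at 6.68 kb were in only 1 or 2 lists. None was in the first WT list, which held 808 peaks in all, and a link to the mRNA level was not tested.

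**Figure D4:**
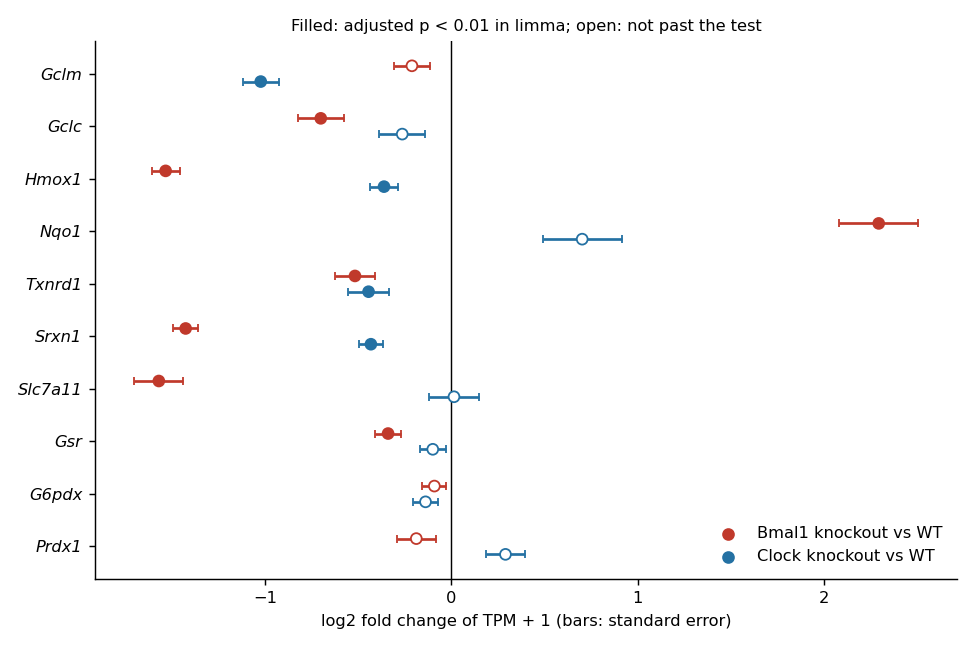
log2 fold change of TPM + 1 against WT for the 10 genes in Bmal1-/- (red) and Clock-/- (blue) cells, with the standard error as bars. Filled points passed adjusted p < 0.01: Hmox1, Srxn1 and Slc7a11 lie between −1.57 and −1.43 in Bmal1-/- cells, and Gclm at −1.02 in Clock-/- cells.

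Levels per transcript length in WT cells ran from Prdx1 (429 ± 19.95 TPM) through Txnrd1, Hmox1, Srxn1, Gsr, Gclm (116 ± 7.71 TPM), G6pdx and Gclc (35.6 ± 2.99 TPM) to Slc7a11 (2.83 ± 0.29 TPM) and Nqo1 (0.67 ± 0.32 TPM; SD, n = 3). Txnrd1 and Hmox1 overlapped across libraries, as did Srxn1 and Gsr, and the other neighbours in this order did not. In Bmal1-/- cells Hmox1 took the fifth and Srxn1 the seventh place, and Nqo1 was above Slc7a11. In Clock-/- cells the WT order held except that Gsr stood above Srxn1.

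The Bmal1-/- and Clock-/- libraries were also compared directly, in the same fit to all 9 libraries, so that the WT libraries enter the estimate of the spread but not the difference. Gclm and Nqo1 were higher in Bmal1-/- than in Clock-/- cells, and Hmox1, Srxn1, Slc7a11 and Prdx1 were lower. The 2 that were higher stand beside 22.8% of all genes and the 4 that were lower beside 21.8%, and Hmox1, Slc7a11 and Nqo1 differed by more than 1 on the log2 scale, as 14.5% of all genes did. The log2 difference was 0.81 for Gclm (adjusted p = 7.2e-05), −1.17 for Hmox1 (adjusted p = 1.5e-06), −0.99 for Srxn1 (adjusted p = 1.8e-06) and −0.48 for Prdx1 (adjusted p = 0.00333). Gclc (−0.44, adjusted p = 0.0117), Gsr (−0.24, adjusted p = 0.0144), Txnrd1 (−0.07, adjusted p = 0.587) and G6pdx (0.05, adjusted p = 0.549) missed the threshold. With the median of each chromosome taken out, Prdx1 missed it as well (−0.41, adjusted p = 0.0235) and Gclc passed it (−0.38, adjusted p = 0.00186).

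Gclm and Hmox1 thus had different patterns over the 6 knockout libraries. Measured by the root mean square difference in log2 deviation from the WT mean, the nearest of 10800 genes to Gclm were Ak3 (0.03), Abcb4 (0.08) and Pspc1 (0.10), beside a median of 0.83 for all genes. Nearest to Hmox1 were Cdk5r2 (0.09), St8sia5 (0.12) and Srxn1 (0.13), beside a median of 1.19. Srxn1 was the only one of the other 9 genes named by this measure.

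The regulators of the response are given next. Of 11 tested, 3 rose and 3 fell in Bmal1-/- cells, beside 18.4% and 21.0% of all genes tested. In Clock-/- cells 1 rose and 1 fell, beside 9.50% and 14.4% of all genes. Nfe2l2, which encodes NRF2, was at 10.9, 11.1 and 9.85 TPM in WT, 13.3, 15.3 and 15.7 TPM in Bmal1-/- and 13.9, 11.2 and 12.1 TPM in Clock-/- libraries. The Bmal1-/- libraries were above the WT range, with a log2 fold change of 0.44 (SE 0.11, adjusted p = 0.00657), and the Clock-/- cells had 0.20 (adjusted p = 0.168). Neither Keap1 nor Bach1 passed the test. Keap1 differed from WT by 0.01 on the log2 scale in Bmal1-/- cells (adjusted p = 0.926) and by 0.16 in Clock-/- cells (adjusted p = 0.260). For Bach1 these differences were 0.09 (adjusted p = 0.712) and −0.27 (adjusted p = 0.294).

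Small MAF genes differed from each other. Maff was at 49.8, 43.7 and 46.7 TPM in WT, 16.0, 16.9 and 18.7 TPM in Bmal1-/- and 34.5, 34.5 and 33.5 TPM in Clock-/- libraries, with no overlap. It fell by 1.39 on the log2 scale in Bmal1-/- (adjusted p = 8.5e-07) and by 0.44 in Clock-/- cells (adjusted p = 0.00209). Mafg rose by 0.45 in Bmal1-/- (adjusted p = 0.00186) and by 0.48 in Clock-/- cells (adjusted p = 0.00224), and Mafk had −0.05 (adjusted p = 0.767) and −0.18 (adjusted p = 0.286). Maff and Mafg each had a THRAP3 peak within 20 kb of the start in all 4 lists, as did Sqstm1. Of 12 regulators, 3 and 6 had such a peak in the WT lists and 9 in each Bmal1-/- list. Over all genes the shares were 3.25% and 22.1% in the WT lists and 44.3% and 39.9% in the Bmal1-/- lists.

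Cul3 and Rbx1, parts of the ubiquitin ligase that KEAP1 serves, fell in Bmal1-/- cells by 0.67 (adjusted p = 0.00123) and 0.71 (adjusted p = 1.2e-05) on the log2 scale. Sqstm1, whose product p62 can bind KEAP1, rose in Bmal1-/- cells by 0.32 (adjusted p = 0.00248). Nfe2l1 (0.24, adjusted p = 0.0650) and Bach2 (−0.34, adjusted p = 0.0881) did not pass the test there, and Nfe2 was too low to be tested. The median log2 fold change in Bmal1-/- cells was 0.35 over chromosome 11, which holds Mafg and Sqstm1, and −0.35 over chromosome 1, which holds Cul3. With the median of each chromosome taken out, Mafg (0.10, adjusted p = 0.189) and Sqstm1 (−0.03, adjusted p = 0.710) no longer passed in Bmal1-/- cells, nor Maff in Clock-/- cells (−0.16, adjusted p = 0.154), while Cul3 and Nfe2l2 did. Of the 10 target genes, no call against WT changed in this way.

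Other genes of the pathway, in 7 lists, moved in both directions, as did the genes of the whole table. The counts of each list stand beside 18.4% of all genes tested that rose and 21.0% that fell in Bmal1-/- cells. In Clock-/- cells these shares were 9.50% and 14.4%. Of 28 tested genes of glutathione synthesis, use and export, 7 rose and 7 fell in Bmal1-/- cells and 2 rose and 7 fell in Clock-/- cells. Chac1, which breaks down glutathione, fell by 2.10 on the log2 scale in Bmal1-/- (adjusted p = 4.3e-08) and rose by 1.00 in Clock-/- cells (adjusted p = 7.3e-06). Gstt1, a glutathione transferase, rose by 1.60 (adjusted p = 3.2e-06) and fell by 1.62 (adjusted p = 4.8e-06). Oplah, an oxoprolinase, rose by 1.12 (adjusted p = 2.2e-04) and fell by 0.69 (adjusted p = 0.00656). Gpx3, a secreted glutathione peroxidase, fell by 1.96 in Bmal1-/- cells (adjusted p = 2.3e-06) and was listed at 0 in all Clock-/- libraries. Mgst3, a microsomal transferase, rose in both lines, by 0.80 and 0.85 (adjusted p = 1.6e-04 and 2.0e-04).

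Of 22 thioredoxin and peroxiredoxin genes, 6 rose and 4 fell in Bmal1-/- and 3 rose and 4 fell in Clock-/- cells. Txnip, which binds thioredoxin, was at 38.1, 40.1 and 40.9 TPM in WT, 87.8, 125 and 101.5 TPM in Bmal1-/- and 22.2, 21.7 and 25.9 TPM in Clock-/- libraries, without overlap. It rose by 1.36 on the log2 scale in Bmal1-/- (adjusted p = 1.3e-05) and fell by 0.75 in Clock-/- cells (adjusted p = 0.00105). Txnrd3 rose in both lines, by 0.87 (adjusted p = 8.8e-04) and 1.09 (adjusted p = 3.9e-04). In Bmal1-/- cells Txn2, mitochondrial thioredoxin, fell by 0.75 (adjusted p = 2.1e-05) and Glrx2 by 0.58 (adjusted p = 8.9e-04). In Clock-/- cells Sesn3 fell by 1.47 (adjusted p = 1.9e-04), Txnrd2 fell by 0.79 (adjusted p = 2.0e-04) and Glrx5 rose by 0.55 (adjusted p = 8.0e-04). Glrx2, on chromosome 1, missed the threshold in Bmal1-/- cells with the chromosome median taken out, and Txnrd2 and Glrx5 did so in Clock-/- cells.

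Of 16 other NADPH-making enzymes, 3 rose and 4 fell in Bmal1-/- and 2 rose and 4 fell in Clock-/- cells. Idh1, the cytosolic isocitrate dehydrogenase, fell by 1.28 on the log2 scale in Bmal1-/- (adjusted p = 8.5e-07) and by 0.46 in Clock-/- cells (adjusted p = 9.2e-04). Idh2, its mitochondrial relative, rose by 0.45 in Bmal1-/- cells (adjusted p = 2.2e-04). Aldh1l1, of folate metabolism, fell in both lines, by 1.35 (adjusted p = 1.1e-04) and 1.81 (adjusted p = 3.1e-05). H6pd, the pentose phosphate enzyme of the endoplasmic reticulum, fell by 1.23 in Clock-/- cells (adjusted p = 5.7e-05). Pgls rose by 0.36 (adjusted p = 0.00925) and 0.70 (adjusted p = 3.3e-04), and Pgd rose by 0.30 in Clock-/- cells (adjusted p = 0.00876).

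Of 15 genes of heme and iron handling, 4 rose and 4 fell in Bmal1-/- and 1 rose and 4 fell in Clock-/- cells. Blvra, which turns the biliverdin made by heme oxygenase into bilirubin, fell by 0.86 on the log2 scale in Bmal1-/- (adjusted p = 1.1e-05) and rose by 0.44 in Clock-/- cells (adjusted p = 0.00128). Slc40a1, the iron exporter ferroportin, was at 56.2, 51.4 and 46.2 TPM in WT, 97.4, 102 and 104.5 TPM in Bmal1-/- and 19.9, 17.5 and 22.9 TPM in Clock-/- libraries. Its log2 fold change was 0.97 (adjusted p = 4.1e-05) in Bmal1-/- and −1.31 (adjusted p = 1.0e-05) in Clock-/- cells. Tfrc, the transferrin receptor, fell by 0.54 (adjusted p = 0.00130) and 1.04 (adjusted p = 3.8e-05), and Blvrb rose by 0.74 in Bmal1-/- cells (adjusted p = 7.5e-05). The median log2 fold change over chromosome 16, which holds Tfrc, Txnrd2 and Sod1, was −0.46 in Clock-/- cells.

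Of 20 quinone and xenobiotic enzymes other than Nqo1, 5 rose and 3 fell in Bmal1-/- and 4 rose and 5 fell in Clock-/- cells. Ptgr1, a reductase of enals and leukotrienes, rose by 1.00 (adjusted p = 3.5e-06) and 1.32 (adjusted p = 9.5e-07) on the log2 scale, and Akr7a5 rose by 0.85 (adjusted p = 2.0e-04) and 0.88 (adjusted p = 2.8e-04). Akr1b8 fell by 1.37 in Bmal1-/- cells (adjusted p = 1.0e-05). Ugdh fell by 0.70 (adjusted p = 3.0e-05) and 1.16 (adjusted p = 1.8e-06), and Ephx1, an epoxide hydrolase, by 0.37 (adjusted p = 0.00280) and 1.70 (adjusted p = 2.8e-07). Of the 4 superoxide dismutase and catalase genes, 1 fell in Bmal1-/- cells and 1 rose and 2 fell in Clock-/- cells, among them Sod1, which fell by 0.56 (adjusted p = 0.00218), and Ccs, its copper chaperone, which rose by 0.49 (adjusted p = 0.00175). In each line 1 of the 4 fell by more than 1 on the log2 scale, at means under 5 TPM and so not named. With chromosome medians taken out the change of Sod1 was −0.11 (adjusted p = 0.631). Ephx1 and Pgls in Bmal1-/- cells and Idh1, Oplah and Pgd in Clock-/- cells missed the threshold in the same way (adjusted p from 0.0249 for Oplah to 0.791 for Ephx1).

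The ATF4 amino acid response, which also drives Slc7a11, was the list with most movement in Bmal1-/- cells. The lists were chosen with earlier results of these data known, and a link to the Slc7a11 level was not tested. Of 25 genes 18 fell and 3 rose, with a median log2 fold change of −0.94, against 4 that fell and 5 that rose with a median of −0.02 in Clock-/- cells. Trib3 was at 48.5, 45.4 and 45.6 TPM in WT, 13.5, 13.0 and 13.5 TPM in Bmal1-/- and 67.4, 63.3 and 62.7 TPM in Clock-/- libraries, and no genotype overlapped another. It fell by 1.73 (adjusted p = 6.0e-08) in Bmal1-/- and rose by 0.46 (adjusted p = 5.0e-04) in Clock-/- cells. Cbs, of transsulfuration, fell in both lines, by 1.54 (adjusted p = 1.2e-07) and 0.87 (adjusted p = 7.3e-06).

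Phgdh, which starts serine synthesis, fell by 1.08 (adjusted p = 8.0e-06) in Bmal1-/- and rose by 1.00 (adjusted p = 2.3e-05) in Clock-/- cells. Slc38a2, an amino acid transporter, rose by 1.17 (adjusted p = 3.6e-05) and Ddit4 by 0.72 (adjusted p = 1.7e-04) in Bmal1-/- cells. Nupr1 fell by 1.82 in Clock-/- cells (adjusted p = 4.5e-06).

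**Figure D5:**
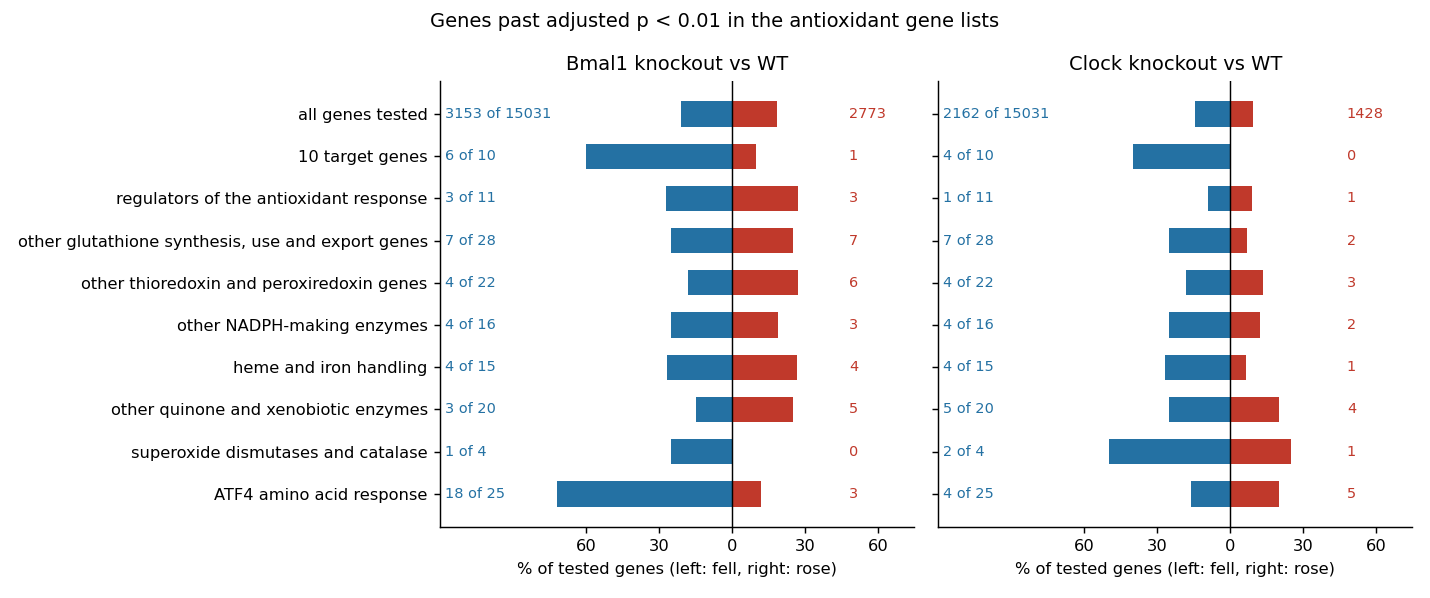
Share of the tested genes of each list that fell (blue, left) or rose (red, right) at adjusted p < 0.01 in each knockout, with the numbers printed beside the bars and all 15031 genes in the top row. The 10 target genes and the ATF4 list show more falls than rises in Bmal1-/- cells (6 and 1, and 18 and 3), and most of the other lists held genes that fell and genes that rose.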

How the data were processed

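mRNA was measured in 9 libraries and THRAP3 chromatin binding in 4 ChIP-seq libraries of β-TC6 cells, grouped by the sample labels. The authors aligned RNA reads to mm10 with STAR 2.5.0 and counted exons with featureCounts 1.5.3, and deposited TPM per gene. How TPM were computed is not given in the sources used here. The study set a minimum read number per library, but TPM do not keep the depth of each. Libraries were directional and poly(A)-selected. For ChIP-seq the authors aligned with Bowtie2 2.2.4 and called peaks with HOMER in each library over pooled input. Per the file headers the signal of a peak is its tag count scaled to a common total of tags. The deposited score ranks peaks within a list, the deposited ratio is the fold over input or over the local region, and the deposited p-values of peaks compare tags with input and were not used further. The authors' DESeq2 1.22.1 tables of fold changes and p-values were not used, nor were eCLIP and input libraries.

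log2(TPM + 1) of all 15031 genes with at least 1 TPM in at least 3 libraries was fitted with limma 3.58.1 (R 4.3.3, eBayes with a trend) to the 9 libraries, with Benjamini-Hochberg adjustment over all genes tested. A gene rose or fell at an adjusted p under 0.01. The fit was tested on simulated data. Of 20599 genes, 20499 matched GENCODE vM21 by identifier. Distances run from a peak's centre to the gene's 5′ end. Motifs are exact matches, read with samtools 1.23.1 and Python 3.11.15 from GRCm38. RefSeq promoter sequences matched 7 of the 10 genes. The genes and lists were chosen with earlier results of these data known. Besides the 10 genes, the targeted genes and all regulators, the 2 largest rises and falls past the test per list and knockout at a mean of at least 5 TPM are named, and the 3 genes most like Gclm and Hmox1. Alternatives were other pseudocounts, filters, scalings, samples and windows, a replicate block and leaving out each library.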

Additional observations from a re-analysis of the deposited data

Results flagged for a closer look

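The effect of the knockout differed between the lines for 6 of the 10 target genes, by the direct limma contrast of Bmal1-/- against Clock-/- libraries (3 each). Of all genes, 22.8% were higher and 21.8% lower in Bmal1-/- cells in this contrast, so such differences were common and not particular to these genes. On the log2 scale the difference was 0.81 for Gclm (adjusted p = 7.2e-05) and 1.59 for Nqo1 (adjusted p = 1.5e-04), both higher in Bmal1-/- cells. It was −1.17 for Hmox1 (adjusted p = 1.5e-06), −0.99 for Srxn1 (adjusted p = 1.8e-06), −1.58 for Slc7a11 (adjusted p = 7.3e-06) and −0.48 for Prdx1 (adjusted p = 0.00333), all lower in Bmal1-/- cells. In each of the 6 every Bmal1-/- library lay on 1 side of every Clock-/- library. The 6 were picked by this same contrast, so this adds no support, and the share of all genes separated in this way was not counted. Each line is 1 clone, so the difference between genes knocked out and the difference between clones cannot be told apart.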

How the results depend on the processing

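The 6 target genes that fell in Bmal1-/- cells numbered 5 or 6 under every other setting and 4 to 6 with 1 library left out. The 1 that rose was 1 with each library left out and 0 with a mean of at least 5 TPM, which removes Nqo1 and Slc7a11. The 4 that fell in Clock-/- cells numbered 2 with only the 2 groups compared and 2 without a trend in the spread, and 2 to 3 with 1 library left out. The 0 that rose became 1 with quantile normalization, where Nqo1 passed (adjusted p = 0.00908), and ranged from 0 to 1 with 1 library left out. Between the knockouts, the 2 higher in Bmal1-/- cells became 1 with a mean of at least 5 TPM and were 2 with each library left out, and the 4 lower ones were 3 to 5 with a library left out. Without any shift in the call, G6pdx changed sign in Bmal1-/- cells with chromosome medians subtracted (0.0682) and between the knockouts with quantile normalization (−0.0576). With a library left out Slc7a11 in Clock-/- cells ran from −0.0265 to 0.0903, and Txnrd1 between the knockouts from −0.20 to 0.0103. Of 264 single values of the 10 genes under other settings 247 kept direction and call, and of 270 with a library left out 243 did.

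Replicate numbers did not pair the libraries: deviations of same-numbered libraries correlated at −0.208 to 0.0742 (others −0.163 to 0.212). With the replicate block, the Bmal1-/- counts were 6 that fell and 1 that rose, and 3 fell in Clock-/- cells. The regions in all 4 lists stayed 6 with an overlap of at least 50%. TPM keep no depth, so values under 1 TPM (Nqo1 in WT, Slc7a11 in Bmal1-/- cells) have an unknown counting error.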
